A study of Rattus norvegicus with 6 samples.

Results

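The genes described here encode subunits of the transcription factor NF-kappa B, the inhibitors that hold it back and a kinase that releases it. Of 10 genes named for this purpose, 6 were read by the array (7 probes). These were the subunits Nfkb2 and Rela, the I kappa B family genes Nfkbia, Nfkbie and Bcl3 (grouped here as inhibitors), and the kinase Ikbkb. They were found by matching the accession printed for each probe to RefSeq genes of the rat assembly GRCr8, and they are 6 of the 12397 genes tested. No probe was matched to Rel, Relb, Nfkb1 or Tnfaip3, so these 4 genes have no value here. The comparison of subunits rich in lymphoid tissue with ubiquitous ones therefore rests on 1 gene on each side, Nfkb2 and Rela.

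RNA came from the colons of 3 male Dahl salt-sensitive rats (the inbred SS/Jr strain, called S; rats S1, S2 and S3) and 3 male rats of the congenic strain S.LEW(10)x12x2x3x5 (C1, C2 and C3), which carries a Lewis (LEW) segment of chromosome 10 on the S background. All 6 rats ate a low-salt diet, were injected with azoxymethane (AOM, a colon carcinogen) at 15 mg per kg 2 times from 6 weeks of age, and were 30 weeks old at harvest, so there was no group without the carcinogen. Each rat had 1 single-color Agilent array. Whether the RNA came from tumor or from tumor-free colon is not stated in the sources used here, and a congenic strain of this kind cannot tell apart the variants within its segment. Whole colon holds many cell types, and fewer cells of a type cannot be told apart from less RNA per cell. As a check of the tissue, all 10 tested markers of colon epithelium, such as Epcam, Vil1 and Cdx2, were well above background on every array. S2 stood apart from its own strain: over all tested probes, its Pearson correlation was from 0.967 up to 0.976 for the 3 congenic rats, 0.937 to S3 and 0.900 to S1 (S1 to S3, 0.980). The members and the counts of the pathway lists are therefore also given without S2. Because S2 was singled out from these same values, calls and p-values without it are descriptions only.

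NF-kappa B proteins act as pairs. In resting cells the pairs are kept in the cytoplasm by I kappa B proteins, and a kinase complex that contains IKK beta marks the inhibitor for destruction when a receptor for a cytokine or a bacterial product is engaged. Freed pairs of p50 and RelA enter the nucleus, while in a slower route the precursor p100, made by Nfkb2, is cut to p52, which works with RelB in lymphoid tissue. Genes for several of the inhibitors are themselves NF-kappa B targets, a negative feedback loop known from many cell types, and in the colon the pathway is known for its part in the response to microbes, in lymphoid follicles and in inflammation.

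The promoter sequences of the measured members are shown first, because the members differ in whether they hold a match to the kappa B consensus, the short DNA element that NF-kappa B binds. RefSeq promoter windows on GRCr8, each from 250 bases before to 50 bases after a transcript start, were given for 8 of the 10 genes and for 5 of the 6 measured ones (none was given for Ikbkb or Relb). The kappa B consensus was searched by its usual degenerate form, on both strands, with overlapping matches kept. The 250 bases before the start are printed 5′ to 3′ on the strand of the gene, with matches in capitals. For Nfkb2 the window belongs to a transcript start inside the annotated gene.
Nfkb2, chr1:255108124-255108373, plus strand: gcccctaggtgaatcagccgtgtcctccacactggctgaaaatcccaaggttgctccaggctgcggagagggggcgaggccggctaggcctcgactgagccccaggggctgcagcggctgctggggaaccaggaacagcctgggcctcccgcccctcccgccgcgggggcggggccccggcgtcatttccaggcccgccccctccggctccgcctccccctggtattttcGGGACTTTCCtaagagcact
Nfkbia, chr6:78597073-78597322, minus strand: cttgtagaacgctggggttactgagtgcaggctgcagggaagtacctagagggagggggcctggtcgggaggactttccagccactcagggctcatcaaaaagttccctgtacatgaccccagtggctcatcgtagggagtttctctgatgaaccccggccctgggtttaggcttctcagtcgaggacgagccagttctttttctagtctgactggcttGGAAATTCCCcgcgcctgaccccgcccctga
Nfkbie, chr9:22947873-22948122, minus strand: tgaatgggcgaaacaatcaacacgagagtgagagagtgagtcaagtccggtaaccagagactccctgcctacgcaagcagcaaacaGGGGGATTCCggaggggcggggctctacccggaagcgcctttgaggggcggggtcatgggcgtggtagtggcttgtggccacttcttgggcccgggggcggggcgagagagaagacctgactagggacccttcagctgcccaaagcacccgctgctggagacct
Bcl3, chr1:88613556-88613805, minus strand: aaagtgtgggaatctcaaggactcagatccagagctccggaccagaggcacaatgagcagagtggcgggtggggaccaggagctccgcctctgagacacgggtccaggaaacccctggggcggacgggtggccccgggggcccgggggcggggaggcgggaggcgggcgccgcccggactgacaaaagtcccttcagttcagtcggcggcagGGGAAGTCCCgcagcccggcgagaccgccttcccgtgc
Rela, chr1:212354086-212354335, plus strand: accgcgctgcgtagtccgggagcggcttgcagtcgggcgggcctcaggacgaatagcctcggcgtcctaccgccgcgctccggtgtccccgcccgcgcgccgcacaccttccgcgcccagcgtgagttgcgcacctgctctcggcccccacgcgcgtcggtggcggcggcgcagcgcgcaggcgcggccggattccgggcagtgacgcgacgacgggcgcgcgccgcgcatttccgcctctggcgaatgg

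A match was present in 7 of the 8 windows, against 7.51% of all 33469 promoter windows. The first base of the match lay 20 bases before the start in Nfkb2, 31 in Nfkbia, 38 in Bcl3 and 164 in Nfkbie. The window of Rela held none. Among the genes with no measurement here, Tnfaip3 had matches at 3 positions, Rel at 4 positions that overlap in pairs, and Nfkb1 at 1 position just after the start. A match in sequence is a description of these letters and does not show binding. Over all 10138 tested genes with a window, the median log2 fold change was 0.01 for the 964 genes with a match and 0.03 for the 9174 without, and 2.91% and 2.47% of them had a lower call in the congenic strain by the rule given next.

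**Figure D1:**
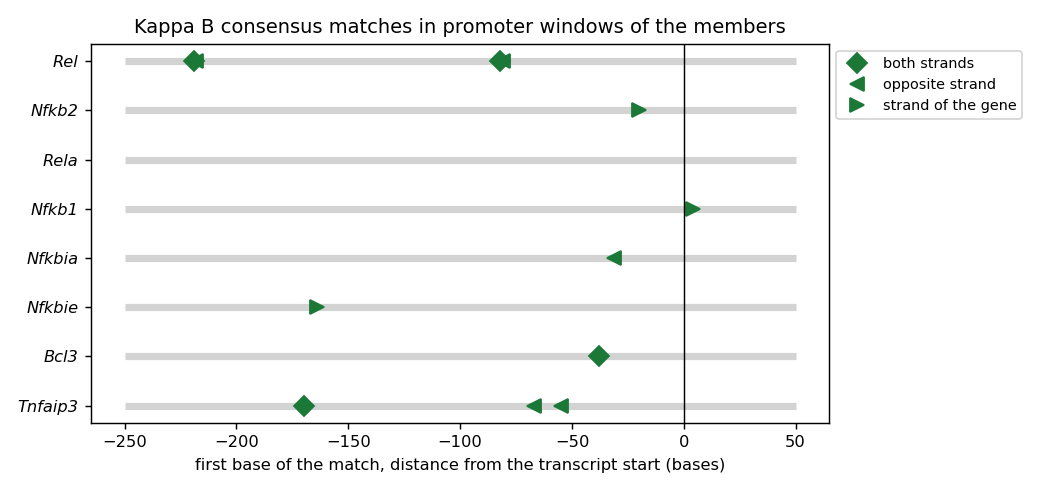
Position of kappa B consensus matches in the promoter windows of 8 members (grey bars, horizontal axis in bases from the transcript start, 1 row per gene). Each marker is the first base of a match and its shape gives the strand. Rela alone has no marker.

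Levels are log2 signals after quantile normalization, which brings the arrays to a common distribution. Each difference is a log2 fold change, congenic minus S, so that negative values are lower in the congenic rats, and it is given ± its standard error (SE) with the p adjusted over all probes by limma. A gene was called when limma gave an unadjusted p under 0.05 together with a 2-fold change, the p and fold limits of the study's wider gene list. At these limits 1 of the 6 members, Nfkb2, was called lower and none higher, where 2.63% of all tested genes were called lower and 3.79% higher. The methods' t-test on the same values did not call Nfkb2 (0.782% of all tested genes were called lower by it), which left no member called. All 6 members had a log2 fold change below 0, as did 47.0% of all genes. Their median was -0.92, and the median of all 12397 genes was 0.03. No gene of the array passed an adjusted p under 0.05 with limma (0.0% of genes, Benjamini-Hochberg adjustment over all 23974 probes tested), and the adjusted p of the brightest probe of each member lay between 0.345 and 0.430. Every member probe was well above background on all 6 arrays.

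Nfkb2, the gene of p100 and p52, had log2 signals of 10.51 in C1, 10.36 in C2 and 10.08 in C3, while S1 had 11.92, S2 had 10.60 and S3 had 11.61. Every congenic rat was thus below every S rat, but S2 stood only 0.09 above C1. The congenic mean was 10.32 ± 0.22 (SD, n = 3) and the S mean 11.38 ± 0.69 (SD, n = 3). The difference was -1.06 ± 0.36 (SE; limma, unadjusted p = 0.0252, adjusted p = 0.345), so that the congenic level was 2.09-fold lower. The exact permutation test gave p = 0.10 (two-sided), the smallest that 3 rats against 3 allow.

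Rela encodes RelA (p65), the subunit of the classical pair that carries the activation domain, and it is made in most cell types. Its brighter probe read 10.77, 11.04 and 10.97 in C1, C2 and C3, against 11.52, 11.23 and 11.37 in S1, S2 and S3. The strains did not overlap, S2 lay with the other S rats, and the spread was small in both strains, with SDs of 0.14 in the congenic and 0.15 in the S rats. The difference was -0.45 ± 0.18 (SE; limma, unadjusted p = 0.0455, adjusted p = 0.381), or 1.36-fold. A dimmer Rela probe, with scanner intensities of 50.7 to 149, gave no such order: it read 6.29, 6.40 and 6.21 in C1, C2 and C3 and 6.37, 6.68 and 6.15 in S1, S2 and S3. Its difference of -0.10 ± 0.20 (SE; limma, adjusted p = 0.817) turned to 0.04 without S2. The probes of Rela therefore disagree on the size of the difference.

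The kinase Ikbkb, which encodes IKK beta, was similar in size to Rela. It read 9.77 in C1, 10.02 in C2 and 9.89 in C3, while S1 read 10.63, S2 read 10.07 and S3 read 10.59. No congenic rat reached an S rat, although S2 was closer to the congenic rats than to S1 and S3. Its difference was -0.54 ± 0.22 (SE; limma, unadjusted p = 0.0450, adjusted p = 0.381), or 1.46-fold. Nfkb2, Rela and Ikbkb thus formed the part of the members in which the strains did not overlap, 3 of 6, where the congenic rats were wholly lower at 4.98% of all tested genes and wholly higher at 14.2%. They are also the 3 members with an unadjusted p under 0.05, against 4.40% of all tested genes in that direction. For Rela and Ikbkb this was close to the limit: with 75th percentile scaling limma gave unadjusted p-values of 0.0615 and 0.0520, and neither was under 0.05 when any rat other than S2 was left out.

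In the inhibitors S2 stood among the congenic rats, as it did at 42.9% of all tested genes, and the strains overlapped. Nfkbie, which encodes I kappa B epsilon, an inhibitor prominent in lymphocytes, had the widest range of the members. It read 7.97, 8.48 and 8.19 in C1, C2 and C3, while S1 read 10.98, S2 8.01 and S3 10.70. S2 lay within the congenic range, and S1 and S3 were far above it. Nfkbie was 3.21-fold lower in the congenic mean, a difference of -1.68 ± 0.77 (SE; limma, adjusted p = 0.403), with an SD of 1.64 among S rats and 0.26 among congenic rats.

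Bcl3, a nuclear member of the I kappa B family that binds p50 and p52, had levels of 10.08, 10.58 and 10.22 in C1, C2 and C3 and of 12.19, 10.16 and 11.76 in S1, S2 and S3. S1 and S3 were above every congenic rat, and S2 was between C1 and C3. The difference was -1.08 ± 0.52 (SE; limma, adjusted p = 0.415). As with Nfkbie, this is past 2-fold while the unadjusted p of 0.0834 is not under the limit. A 2-fold lower congenic level, whatever the p, was present at 3 of 6 members (Nfkb2, Nfkbie and Bcl3) and at 5.78% of all tested genes. Nfkbia, the gene of I kappa B alpha and the best known target in the feedback loop, read 11.29, 11.03 and 10.97 in C1, C2 and C3, against 12.37, 10.97 and 12.30 in S1, S2 and S3. S2 was level with C3, and the difference was -0.78 ± 0.40 (SE; limma, adjusted p = 0.430). The exact permutation test gave p = 0.30 (two-sided) for each of the 3 inhibitors.

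**Figure D2:**
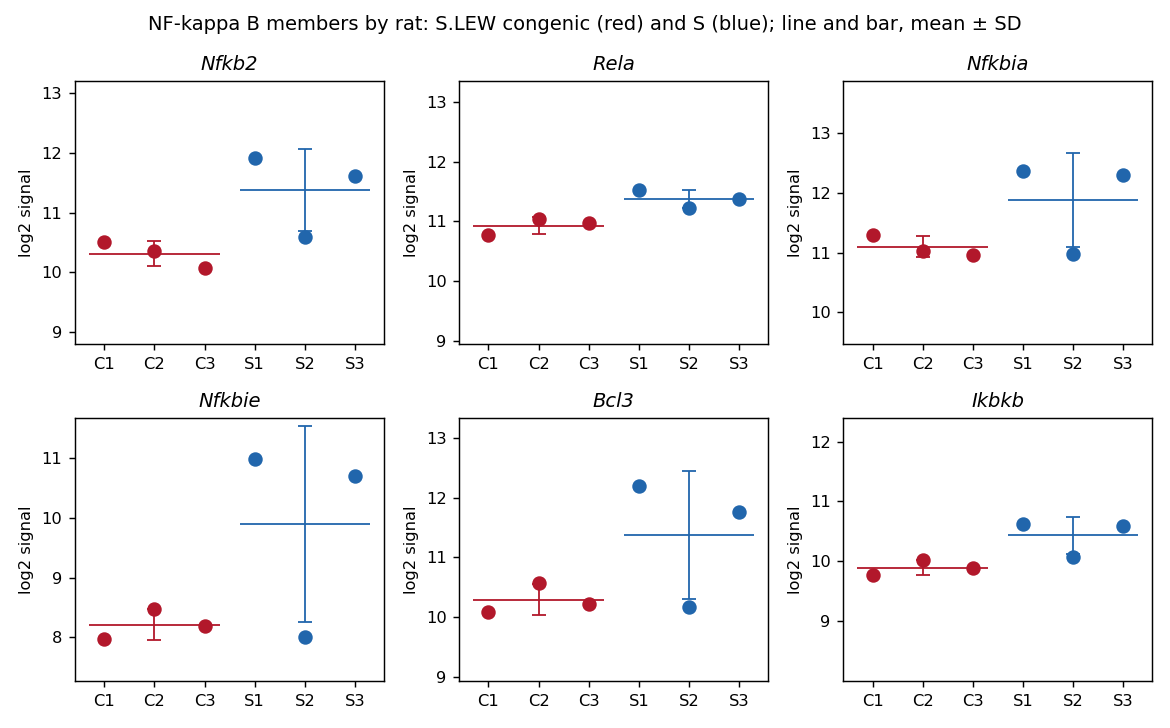
Log2 signal (vertical axes, each spanning the same range) of the brightest probe of each member in 3 S.LEW congenic rats (red) and 3 S rats (blue), with the mean as a line and the SD as a bar. S1 and S3 lie above all congenic rats in every panel, while S2 lies within the congenic range for Nfkbia, Nfkbie and Bcl3 and just above it for Nfkb2, Rela and Ikbkb.

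Set against the mean of the congenic rats, S1 was higher by 0.59 (Rela) to 2.76 (Nfkbie) on the log2 scale and S3 by 0.44 to 2.48, in the same genes, whereas S2 differed by -0.20 (Nfkbie) to 0.30 (Rela). S2 was below both S1 and S3 at all 6 members, as it was at 41.1% of all tested genes, and lay within the range of the 3 congenic rats at 3 of 6, against 42.9% of all genes. The order of the S rats was therefore the same in members of opposite function, the activating subunit Rela and the inhibitors Nfkbia and Nfkbie alike. The size of the step was not: from S2 to S1 it was 0.29 for Rela, 0.56 for Ikbkb, 1.32 for Nfkb2, 1.40 for Nfkbia, 2.02 for Bcl3 and 2.96 for Nfkbie.

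For the subunits alone, the strain difference of Nfkb2 was larger than that of Rela by 0.62 on the log2 scale. Taken within each rat, after subtracting each gene's mean over the 6 arrays, Nfkb2 minus Rela came to 0.04, -0.38 and -0.59 in C1, C2 and C3, against 0.70, -0.33 and 0.55 in S1, S2 and S3. Without S2 the strain differences were -1.45 for Nfkb2 and -0.52 for Rela. The strains overlapped, since S2 lay between C1 and C2 (exact permutation test, two-sided, p = 0.20). A difference between the subunits was not shown by this test, which does not show that they behaved alike.

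The values depended on single rats. S2 was singled out from these same arrays for its likeness to the congenic rats. Leaving it out raised the share of all tested genes called lower from 2.63% to 8.26%. The calls and adjusted p-values without S2 depend on that choice and are no independent support. Without S2, limma called 4 members lower (Nfkb2, Nfkbia, Nfkbie and Bcl3), where 8.26% of all tested genes were called lower, and 5 had an adjusted p under 0.05, from 0.00303 for Nfkbie to 0.0299 for Ikbkb, where 11.6% of all genes did in that direction. Rela had an adjusted p of 0.0714 from limma in that fit. Without S1 no member was called lower (1.47% of all genes were) or was lower with an adjusted p under 0.05 (0.0565% of all genes were). None was called without S3 (0.855% of all genes were called lower), C2 or C3, while Nfkb2 stayed called without C1. The shares of all genes called without C1, C2 or C3 were not counted, so these calls cannot be read against the array. The log2 fold change of Nfkbie was -2.62 without S2 and -1.14 without S1, that of Bcl3 -1.68 and -0.67, that of Nfkb2 -1.45 and -0.79, and that of Nfkbia -1.23 and -0.54. Rela and Ikbkb moved less, from -0.52 to -0.37 and from -0.72 to -0.44 over all 6 rats left out in turn.

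The file headers hold 2 scan times, 1 shared by C1 and the 3 S rats and 1 shared by C2 and C3. Within the first scan C1 was compared with the S rats alone, which is also what a fit with the scan as a block gives. The log2 fold change was -0.87 for Nfkb2, -0.60 for Rela, -0.59 for Nfkbia, -1.93 for Nfkbie, -1.29 for Bcl3 and -0.66 for Ikbkb. All 6 kept their direction, and none was called by limma, Nfkb2 included (unadjusted p = 0.175 with the block), where 1.01% of all genes were called lower. This comparison has 1 congenic rat, assumed to vary like the others, so the lost call says little of the size of the difference.

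**Figure D3:**
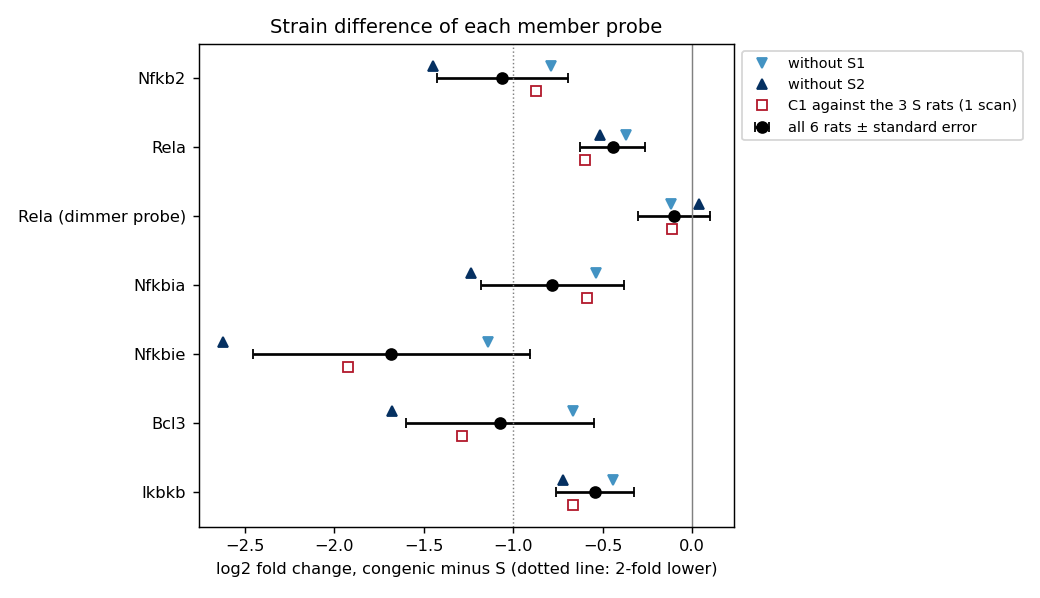
Log2 fold change, congenic minus S (horizontal axis), of the 7 member probes (rows). Black points with bars are all 6 rats ± standard error, triangles leave out S1 or S2, and open squares compare C1 with the 3 S rats of its scan. Leaving out S2 moves every probe but the dimmer Rela probe further below 0.

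Other measures moved with S1 and S3. Before normalization their arrays were the brightest, with a median intensity of 594 and 445 against 214 to 291 on the other 4 arrays. Of 12 B cell markers 10 were matched and 7 tested, and their summed signal was 2240 to 2338 in the congenic rats, 2496 in S2, 63970 in S1 and 43180 in S3. Of 12 T cell markers 7 were tested, with a summed signal of 1349 to 1926 in the congenic rats, 1767 in S2, 11810 in S1 and 11950 in S3. Cd3g, a chain of the T cell receptor complex, read 9.18, 8.34 and 7.98 against 11.45, 9.23 and 11.75. Between 5 and 7 of the 7 B cell markers and as many of the 7 T cell markers were well above background on each congenic array. Ms4a1 and Cd79a had no matched probe, and Cd3e and Cd79b were well above background on fewer than 3 arrays.

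Macrophage markers (10 of 11 tested) were divided: 7 were below 0 (47.0% of all genes were) and 1 was called lower (2.63% of all genes were). Cd163 (1.86) and Mrc1 (1.03) were called higher in the congenic rats, where 3.79% of all genes were. The summed signal of the macrophage markers was 7385 to 10960 in the congenic rats, 7239 in S2, 24660 in S1 and 20640 in S3. It rests on the brightest probes. Smooth muscle markers (7 of 8 tested) went the other way, with 543600 to 610500 in the congenic rats, 643700 in S2, 177400 in S1 and 374200 in S3. Epithelial markers summed to 194300 to 258800 in the congenic rats and to 121900 to 148700 in the S rats, S2 included. Of 6 tested plasma cell markers 4 were below 0 (47.0% of all genes were), with a median of -1.35. Mzb1 (-2.53) and Derl3 (-1.78) were called lower, where 2.63% of all genes were. The summed signal of the plasma cell markers ran the other way, 15200 to 16230 in the congenic and 10260 to 12110 in the S rats. Sdc1 (0.77) and Xbp1 (0.26) are by far the brightest of them. Adipocyte markers (6 of 7 tested) summed to 1000 to 2269 in the congenic and 660.1 to 746.6 in the S rats. The part of these cell types and of array brightness in the strain differences of the members was not tested.

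**Figure D4:**
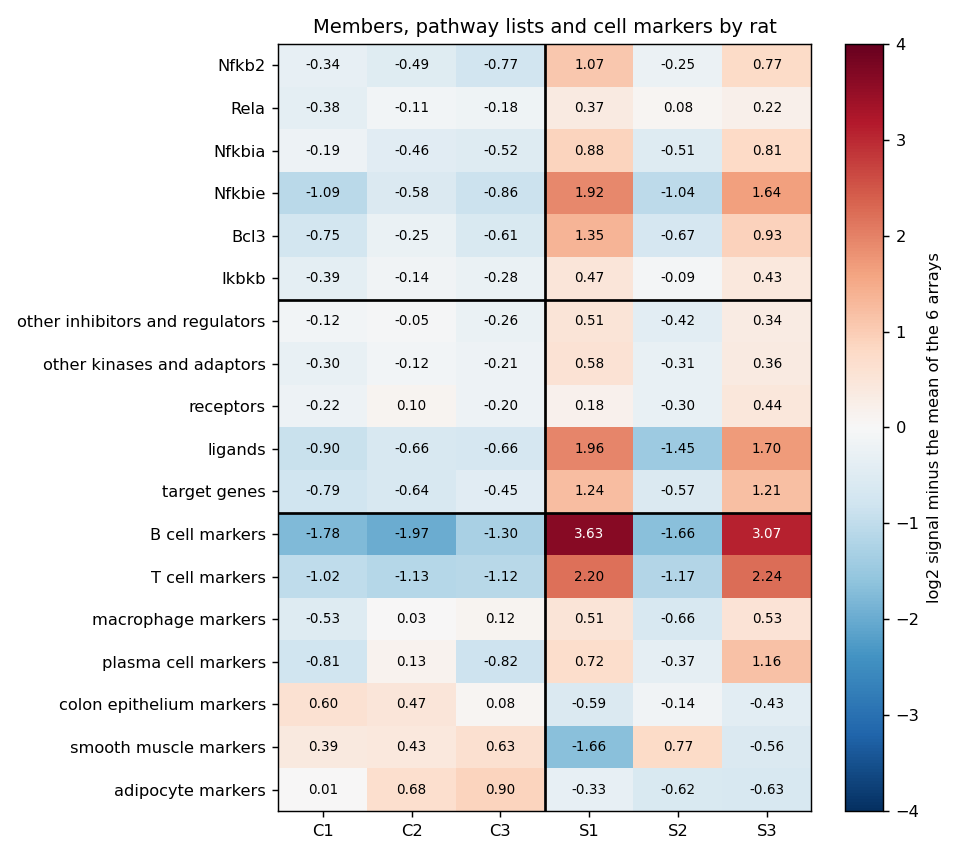
Log2 signal minus its mean over the 6 arrays (color and printed value) for each member, for the mean of each wider pathway list and for the mean of each marker list (rows) in the 6 rats (columns). In S1 and S3 the members, the ligands, the target genes and the B and T cell markers are above 0, and in S2 the same rows except Rela are below it.

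The wider pathway was described with 5 lists of 90 genes in all, of which 60 were tested. Of these, 6 were called lower (2.63% of all tested genes were) and none higher (3.79% of all tested genes were). A log2 fold change below 0 was present at 45 (47.0% of all genes), and the median of the 60 was -0.41. Among the 6 called, Ccl19 passed the filter through the S rats. With only probes well above background on all 6 arrays, 5 were called lower. The share of all genes called with that filter was not counted. Without S2 the count called lower was 21, where 8.26% of all genes were. It was 4 without S1, where 1.47% were, and 4 without S3, where 0.855% were.

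Ligands start the signal by engaging their receptors. Among 5 tested, none was called and all had log2 fold changes below 0 (47.0% of all genes did), from -2.77 to -0.69. Without S2 all 5 were called lower, where 8.26% of all genes were. Each then had an adjusted p under 0.05 from limma, where 11.6% of all genes did in that direction. Ltb, a lymphotoxin subunit that drives the slower route through Nfkb2, read 8.53, 8.60 and 8.63 in C1, C2 and C3 and 13.70, 7.25 and 13.11 in S1, S2 and S3. Its level in S2 was thus below all congenic rats (-2.77 ± 1.64 SE; limma, adjusted p = 0.471), and without S2 the difference was -4.82. Receptors were divided, with 4 of 9 tested genes below 0 (47.0% of all genes were), a median of 0.12 and no call. Without S2, 3 receptors were called lower, where 8.26% of all genes were. Cd40, a receptor of B cells and antigen-presenting cells, read 6.51, 6.47 and 7.19 against 10.63, 6.08 and 10.19 at its brighter probe (-2.24 ± 1.17 SE; limma, adjusted p = 0.436), and the difference without S2 was -3.68. Tlr3 and Ltbr, the receptor for Ltb, were the receptors with an unadjusted p under 0.05, both higher in the congenic rats, where 10.1% of all genes were, with log2 fold changes of 0.94 and 0.78. These were under 2-fold, and without S2 both genes were past 2-fold and called higher. The share of all tested genes called higher without S2 was not counted. Whether these receptors stand out from the rest of the array in that fit was therefore not tested.

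Of 20 tested kinases and adaptors, 1 was called lower, where 2.63% of all tested genes were. A log2 fold change below 0 was present at 18 (47.0% of all genes), and the median was -0.33. The called gene was Prkcb, a protein kinase C that links the B cell receptor to IKK. Its brighter probe read 9.59, 9.80 and 10.58 in C1, C2 and C3 and 12.17, 11.40 and 11.69 in S1, S2 and S3, so that S2 lay with the other S rats (-1.76 ± 0.34 SE; limma, adjusted p = 0.210), and its other probe gave -2.05. Of the 8 other inhibitors and regulators none was called, the median was -0.30, and Pdlim2, a ligase for RelA, had the largest difference (-1.01 ± 0.65 SE, and -1.80 without S2) with S2 below the congenic rats.

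Target genes held 5 of the 6 calls, Ccl19 included, where 2.63% of all tested genes were called lower. Of 18 tested, 13 were below 0 (47.0% of all genes were), and the median was -0.99. Ccl19, a chemokine that guides T cells into lymphoid tissue, read 4.70, 5.23 and 3.71 against 14.08, 5.28 and 13.78. Its probe was well above background in 1 congenic rat only and passed the filter through the S rats, so no size is given for its difference, and S2 lay next to C2. Ccl21, a chemokine with the same receptor, read 11.03, 10.08 and 12.09 against 14.35, 12.59 and 14.34 (-2.69 ± 0.67 SE; limma, adjusted p = 0.269). Icam1, an adhesion molecule for leukocytes, read 8.41, 8.92 and 8.76 against 11.71, 9.08 and 11.45 (-2.05 ± 0.69 SE; limma, adjusted p = 0.340). For Ccl21 and Icam1 the strains did not overlap. The congenic rats were wholly lower at 6 of the 18 targets, Ccl19 included, where they were at 4.98% of all tested genes. They were wholly higher at 1 target, against 14.2% of all tested genes. The other called targets were Ccl2 (-1.77) and Gadd45b (-1.41), while Sod2, Nos2 and Ptgs2 had log2 fold changes of 0.29, 0.37 and 0.85 with no call.

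**Figure D5:**
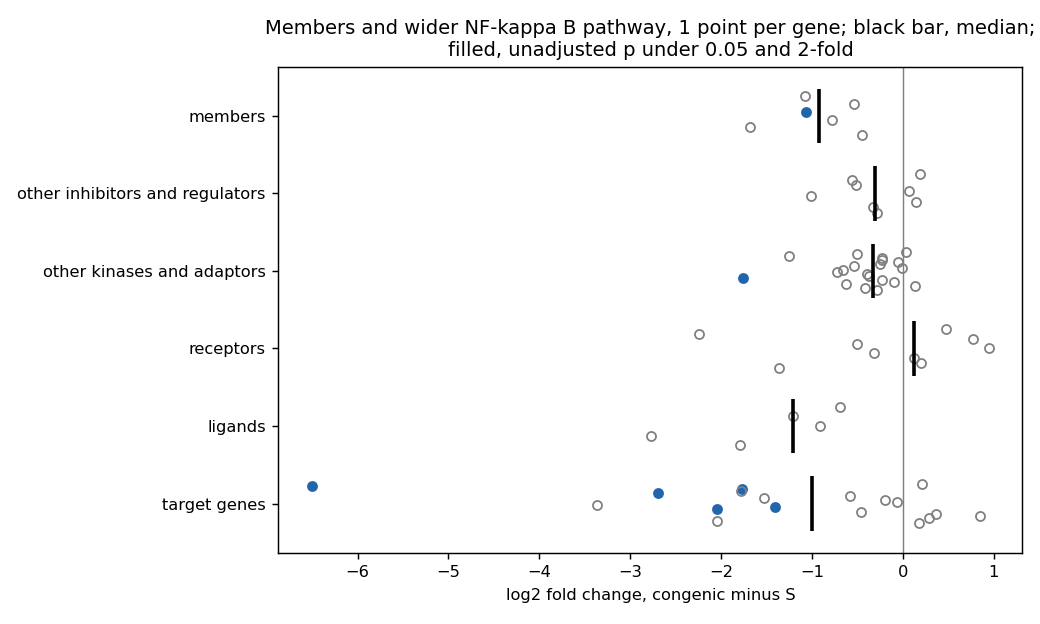
Log2 fold change, congenic minus S (horizontal axis), of the 6 members and of the 60 tested genes of 5 wider pathway lists (rows, 1 point per gene, black bar for the median). Filled points have an unadjusted p under 0.05 and a 2-fold change. The medians lie between -1.21 for the ligands and 0.12 for the receptors.

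The genes most like Nfkb2 over the 6 arrays were sought by the root mean square difference of centred log2 signals, among the 2201 genes that varied at least as much. They were C4h12orf60 (0.12), Slc20a1 (0.12), Klf13 (0.13), Pla2g2f (0.14) and RT1-A2 (0.16). For Rela, among 8471 genes, they were Stat3 (0.04), Gpatch11 (0.07), Cnst (0.07), Bik (0.08) and Sts (0.08). These differences are on the log2 scale and describe 6 arrays that share their normalization.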

How the data were processed

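Colon RNA of 6 rats was read on Agilent Rat 4x44K v3 arrays. The authors deposited scanner output from Feature Extraction 11.0.1.1, in which each spot has a background-corrected intensity that is not normalized between arrays. They also deposited log2 values for 23997 probes, quantile-normalized in GeneSpring and restricted to probes detected in at least 3 of 6 samples. Here the log2 intensities of spots that were neither controls nor outlier-flagged (274 to 419 flagged per array) were averaged per probe and quantile-normalized, and 23974 probes were kept for testing, those with a well-above-background flag on 3 or more arrays (in at least 0.5 of the spots of the probe). The deposited log2 values of the member probes differed from these by at most 0.000819. Between 73.8% and 87.6% of spots were well above background and none was saturated. The number of arrays limits the precision.

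Congenic and S arrays were fitted with limma (version 3.58.1, R 4.3.3), with no covariates. A gene was represented by its probe with the highest mean signal. Accessions matched 18005 of 30367 probes to 15168 RefSeq genes (GRCr8, while the array was annotated on an older build). Exact permutation tests used scipy 1.17.1 and plots matplotlib 3.10.9. The fit was tested on simulated data. Each cage held 1 S and 1 congenic rat, but nothing says that a shared replicate number marks a cage, and the arrays are of separate rats. The members and lists were chosen with earlier results of these data known. Named genes were all members, up to 3 called genes of each pathway list (otherwise the largest difference), the lymphoid markers Ms4a1, Cd79a, Cd3e and Cd3g (1 other item the rule names is not reported here), and the 5 nearest profiles; Tlr3, Ltbr, Ccl2, Gadd45b, Sod2, Nos2, Ptgs2 and the other cell type markers given (Cd79b, Epcam, Vil1, Cdx2, Cd163, Mrc1, Mzb1, Derl3, Sdc1 and Xbp1) were added after their values were seen. The alternatives were 75th percentile scaling, the deposited values, other filters, the methods' t-test, the replicate number or the scan as a block, keeping flagged spots, the mean over probes, and leaving out each rat. Normexp correction (offset 50) on the median signal was added after seeing the data, since the planned mean signal was not among the columns used here.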

Additional observations from a re-analysis of the deposited data

How the results depend on the processing

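With 1 value per member and setting, the log2 fold changes of the 6 members were below 0 in all 108 values. Of these 102 came from alternatives, which reuse the same arrays. The dimmer Rela probe is not counted on its own there, and it was at 0.04 without S2. Beside leaving out rats, the settings that ended the call of Nfkb2 and left 0 members called were the methods' t-test (log2 fold change -1.06, unadjusted p = 0.0642 in that alternative), the scan as a block and the arrays of the first scan alone (both -0.87). In those scan settings Rela was at -0.60, and with the mean over its probes at -0.27. With either scan setting, 1 gene of the wider pathway was called higher and none was in the fit of all arrays. Leaving out each rat gave a log2 fold change of -1.45 to -0.79 for Nfkb2, -0.52 to -0.37 for Rela, -1.23 to -0.54 for Nfkbia, -2.62 to -1.14 for Nfkbie, -1.68 to -0.67 for Bcl3 and -0.72 to -0.44 for Ikbkb, with 0 to 4 members called lower and 0 higher, 4 to 21 wider pathway genes called lower and 0 to 3 higher, and a median of the members of -1.34 to -0.60. Over all tested genes 326 were called lower, against 97 with the methods' t-test, 125 with the scan as a block and 1024 without S2. The replicate number shared only a number: deviations of same-numbered rats correlated at -0.02, -0.13 and -0.06, and with the replicate block the log2 fold change of Nfkb2 was again -1.06 (unadjusted p = 0.0287 from limma), with 1 member called. The other scalings, filters and probe rules left Nfkb2 as the 1 called member. Shares of all genes called lower were not counted for those settings, for the replicate block or without a congenic rat. Shares called higher at these limits were counted only for the fit of all arrays. Counts of calls without such a share cannot be read against the rest of the array. Normexp correction on the mean signal was not run.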
